A study of Homo sapiens with 6 samples.

Results

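Oxidative phosphorylation genes encoded in the nucleus were compared between DMSO-treated and BRL-50481-treated MDA-MB-231 cells, complex by complex. The members were the genes whose symbols in the table begin with NDUFA, NDUFB, NDUFC, NDUFS, NDUFV, UQCR, COX4, COX5, COX6, COX7, COX8 or ATP5, together with SDHA to SDHD and CYC1, after 11 other names (antisense transcripts, assembly factors named NDUFAF and a pseudogene) were dropped. This gave 83 of 15651 genes, and all 83 passed the filter on low counts that left 15246 genes to test. They comprised 37 genes of complex I, 4 of complex II, 10 of complex III, 15 of complex IV and 17 of complex V. NDUFA4 and NDUFA4L2 were placed in complex IV, where their proteins reside, and 2 of the complex V names, ATP5S and ATP5SL, do not encode subunits of the synthase.

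MDA-MB-231 is a human triple-negative breast cancer cell line, and BRL-50481 is a small-molecule inhibitor of PDE7A, a phosphodiesterase that degrades cyclic AMP. There were 3 libraries from cells given the DMSO vehicle and 3 from cells given BRL-50481, with 1 unmodified cell line in both groups. The treatment text and the design text of the labels and the study's figure legends give 50 µM for 72 h, whereas the sample tag of the treated libraries gives 5 µM for 48 h, and the doses cannot be told apart from the data. The design text calls the replicates biological but does not say how their cultures were kept apart, and the p-values measure the spread between these libraries.

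Oxidative phosphorylation takes place in the inner mitochondrial membrane. Complex I (NADH dehydrogenase) and complex II (succinate dehydrogenase) pass electrons to ubiquinone, complex III (the cytochrome bc1 complex) passes them on to cytochrome c, and complex IV (cytochrome c oxidase) delivers them to oxygen. Complexes I, III and IV pump protons, and complex V (ATP synthase) uses the returning protons to make ATP. Most subunits are encoded in the nucleus and imported, while a few core subunits of complexes I, III, IV and V come from mitochondrial DNA. The 13 subunits encoded by mitochondrial DNA were not analysed here. Many nuclear genes for subunits have binding sites for the transcription factors NRF1, GABPA and YY1, whose activity is raised by coactivators of the PGC-1 family.

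The libraries held 30750573 to 33446984 reads on listed genes. The SE of each change came from the spread between libraries, and the part of counting in that spread was not tested. Values below are normalized counts, the read count divided by the library's size factor, and are not corrected for transcript length, so they were compared between libraries and not between genes. A gene was called when limma on log2(normalized count + 1) gave a Benjamini-Hochberg adjusted p under 0.05 over all 15246 genes. Of 11 markers used to check the cell line, 9 were listed. The mesenchymal marker VIM lay at 56075 to 60934 normalized counts with DMSO and 86701 to 88612 with BRL-50481, and CD44, CAV1 and AXL were also abundant. The epithelial marker CDH1 was low but moved with treatment, at 31.7 to 48.6 and 93.1 to 105, as did the endothelial marker PECAM1, at 325 to 396 and 460.4 to 537. The luminal marker GATA3 also lay higher after treatment, at 166 to 228 with DMSO and 250.1 to 299 with BRL-50481. The luminal marker FOXA1 moved the other way, at 33.3 to 58.5 with DMSO and 14.5 to 26.2 with BRL-50481. The groups did not overlap for CDH1, PECAM1, GATA3 or FOXA1. They did not overlap for VIM, CD44, CAV1 or AXL either, and all of these lay higher after treatment. CD44 lay at 30982 to 31805 with DMSO and 43324 to 43852 with BRL-50481. PGR was below the filter, and ESR1 and the leukocyte marker PTPRC were not among the listed genes. The part of these markers in the results was not tested. The libraries were made from bulk RNA, in which fewer cells of a type and less RNA per cell cannot be told apart.

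Most oxidative phosphorylation genes that changed were lower after BRL-50481. Of the 83 genes, 47 (56.6%) were called lower, where 29.8% of all genes tested were called lower, and 6 (7.23%) were called higher, where the share of all genes was 28.9%. The remaining 30 were not called. The median log2 fold change of the members was -0.22, and that of all genes tested was 0.01. Changes were modest. Members called lower differed by 8.17% to 49.0% of the DMSO mean, and members called higher by 11.7% to 35.6%. No member was called with a change of more than 2-fold, a size reached by 2.98% of all genes in the lower direction. ATP5G1 lay closest to that limit, at a log2 fold change of -0.97, and it passed the limit without DMSO replicate 3, at -1.01. NDUFA4L2, a gene with few reads, passed it without BRL-50481 replicate 2, at -1.11, and with quantile normalization, at -1.12. In 45 of the 83 genes all treated libraries lay below all controls, against 32.3% of all genes, and in 7 all treated libraries lay above, against 31.9%. The plot of log2 fold changes by complex shows that each complex held a graded series of changes and that complexes III and IV had no gene called higher.

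**Figure D1:**
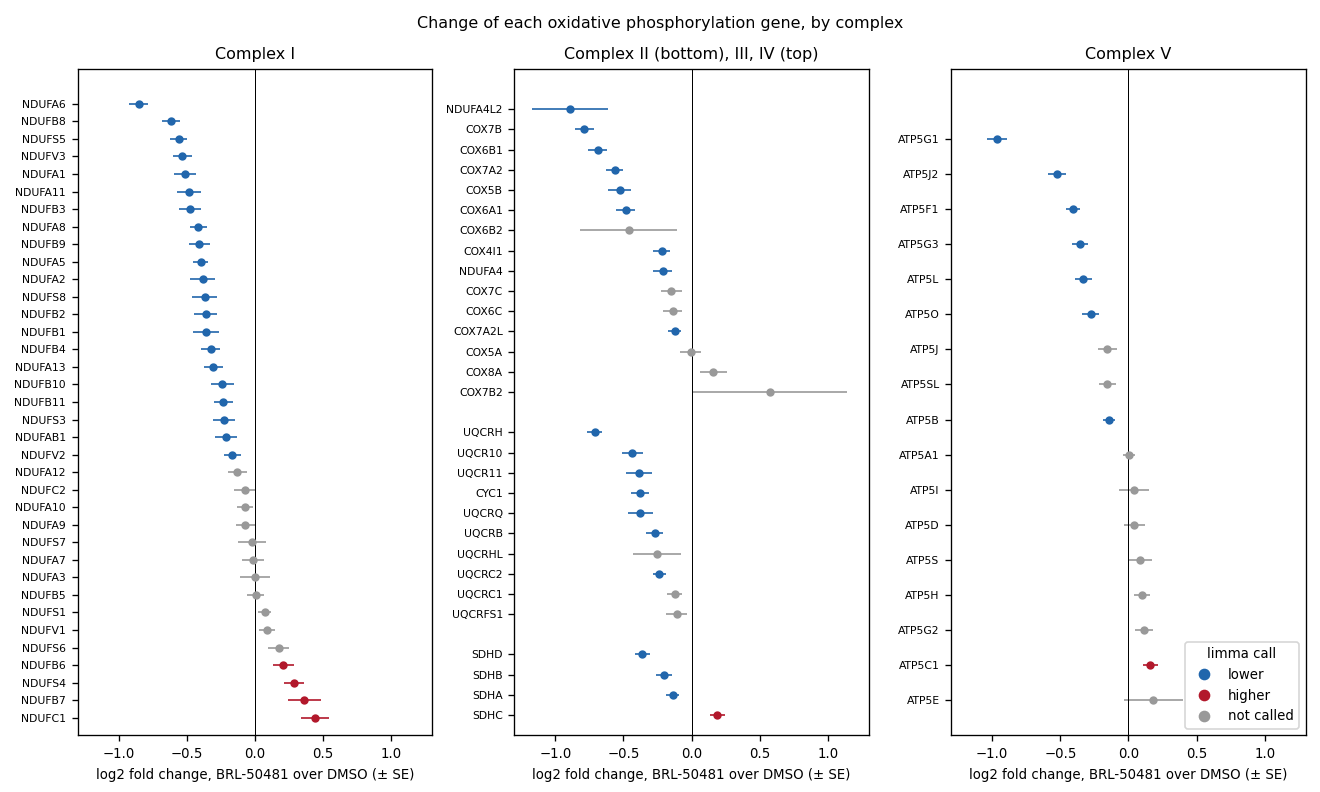
Log2 fold change (BRL-50481 over DMSO, on the log2(normalized count + 1) scale) of 82 of the 83 genes, grouped by complex and sorted by size, with bars of ± 1 SE from limma and 3 libraries per group. Blue points were called lower (47 genes), red points higher (6 genes) and grey points were not called (29 of the genes drawn).

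The DMSO libraries differed among themselves in these genes. DMSO replicate 1 had the lowest value of the 3 DMSO libraries in 72 of the 83 members, compared with 41.6% of all genes tested. The median member lay at -0.13 in DMSO replicate 1, 0.10 in replicate 2 and 0.04 in replicate 3, on a log2 scale relative to each gene's DMSO mean. The 3 BRL-50481 libraries lay at -0.23, -0.25 and -0.16, below each DMSO library but close to DMSO replicate 1. By complex, the groups overlapped for complex I, where DMSO replicate 1 lay at -0.16 and the highest BRL-50481 library at -0.15, and for complex V, at -0.11 and -0.09. They did not overlap for complexes II and III, nor, by a narrow margin (-0.14 and -0.15), for complex IV. The members together took 0.656%, 0.750% and 0.726% of the normalized counts of the DMSO libraries and 0.639%, 0.632% and 0.660% of those of the BRL-50481 libraries, so DMSO replicate 1 lay inside the treated range on that measure. Members of 1 library moved together and were not independent of each other. Without DMSO replicate 1, 56 genes were called lower and 5 higher, where the shares of all genes were 32.4% and 32%, and without DMSO replicate 2, the highest control in 57 of the members, 40 were called lower and 10 higher, where the shares were 28.5% and 27.5%. In all, 36 of the 47 lower calls and 2 of the 6 higher calls were made in each of the 6 fits that left out 1 library.

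**Figure D2:**
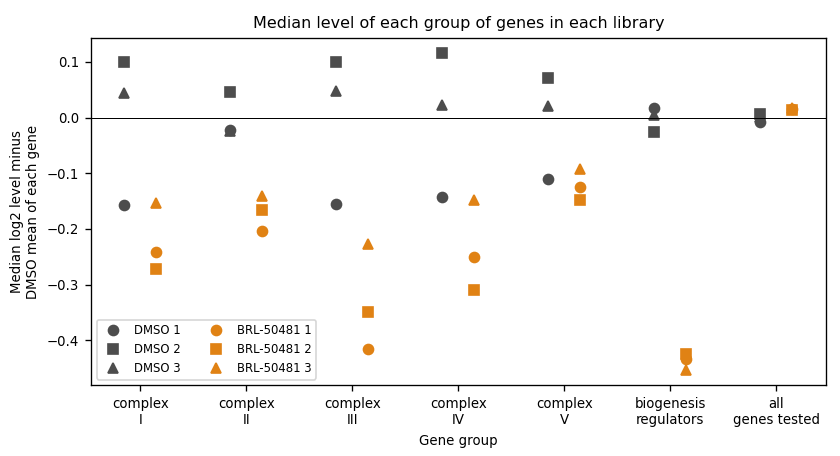
Median over the genes of each group of the log2 level minus the gene's DMSO mean (y axis), for each library (symbols 1 to 3 within DMSO in grey and BRL-50481 in orange). DMSO replicate 1 overlaps the treated libraries for complexes I and V, lies just above them for complex IV and stands clear of them for complexes II and III, while for the 18 biogenesis regulators the 3 DMSO libraries lie within -0.03 and 0.02 and the treated ones between -0.45 and -0.43.

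**Figure D3:**
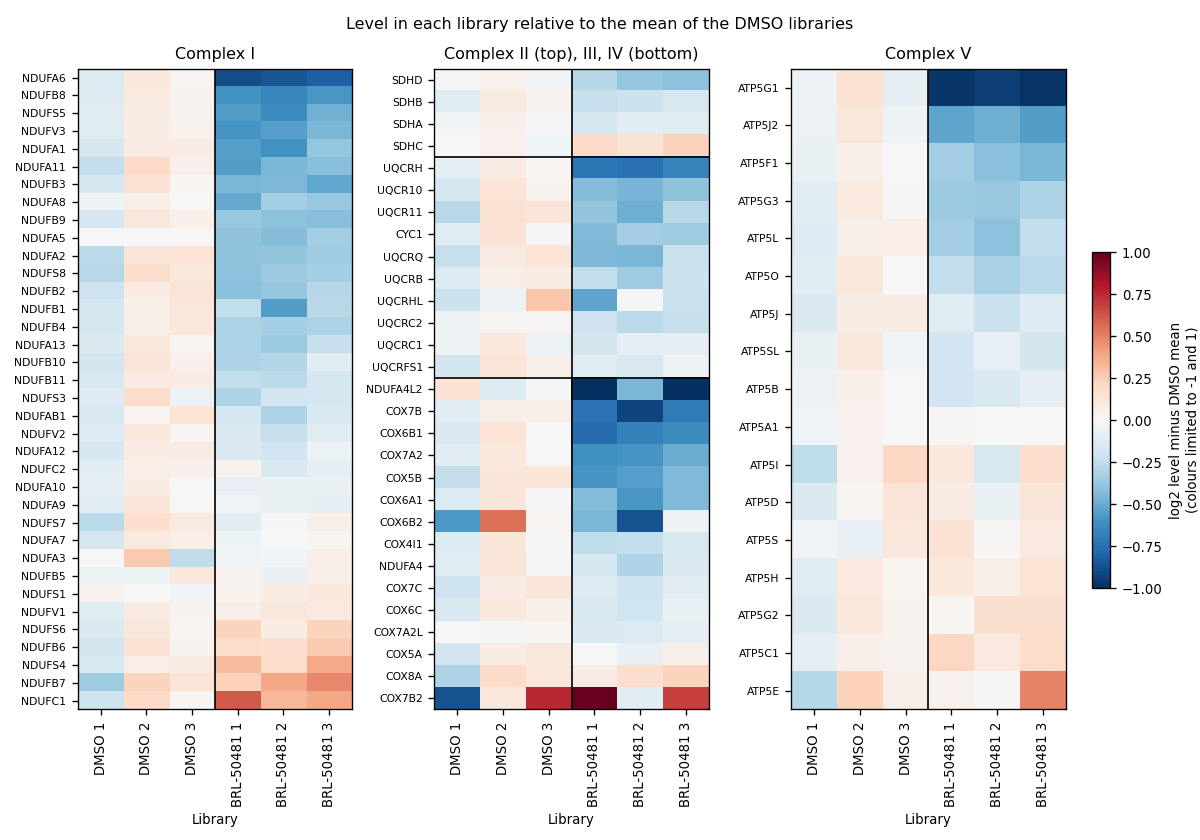
Level of 82 of the 83 genes in each library (columns) as log2(normalized count + 1) minus the mean of the DMSO libraries, with colours limited to -1 and 1. Blue cells are below and red cells above the DMSO mean, and the DMSO replicate 1 column is pale blue for most genes.

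In complex I, 21 of 37 genes were called lower (56.8%) and 4 higher (10.8%), against 29.8% and 28.9% of all genes tested. The log2 fold changes had a median of -0.22. The largest falls were in accessory subunits, which surround the catalytic core. NDUFA6, an accessory subunit of the matrix arm that binds the mitochondrial acyl carrier protein, stood at 1498, 1771 and 1681 normalized counts in the DMSO libraries and at 891, 909 and 936 in the BRL-50481 libraries. The groups were far apart relative to their spread, and the log2 fold change was -0.85 ± 0.07 (SE), limma adjusted p = 4.21e-07. NDUFB8, an accessory subunit of the membrane arm, had 2699.8, 3182 and 3036 normalized counts in the controls and 1946, 1885 and 1977 in the treated libraries, with a log2 fold change of -0.62 ± 0.06 (SE), limma adjusted p = 3.21e-06. NDUFS5, which lies on the intermembrane space side, had control values of 3211, 3653 and 3542 and treated values of 2348, 2228 and 2482, with a log2 fold change of -0.56 ± 0.06 (SE), limma adjusted p = 5.86e-06. The treated libraries of each of these genes lay below all of the controls. The other 18 genes called lower had log2 fold changes from -0.53 (NDUFV3) to -0.17 (NDUFV2).

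The 7 nuclear genes for the catalytic core of complex I encode the subunits that carry the flavin, the iron-sulfur clusters and part of the ubiquinone site. Of the 7, 3 were called lower (42.9%) and none higher, with a median of -0.02. Of the 30 accessory genes, 18 were called lower (60.0%) and 4 higher (13.3%), with a median of -0.27. The shares of all genes tested were 29.8% lower and 28.9% higher. After correction for transcript length and GC content the medians lay closer, at -0.12 for the core and -0.21 for the accessory genes. The difference between core and accessory genes was not tested. NDUFS8, an iron-sulfur subunit, had normalized counts of 3158, 4308 and 4104 with DMSO and 2880.2, 2976 and 3027 with BRL-50481 and a log2 fold change of -0.37 ± 0.09 (SE), limma adjusted p = 0.00352. NDUFS3 (-0.22 ± 0.08) and NDUFV2 (-0.17 ± 0.06), a structural and an iron-sulfur subunit, were also called lower. NDUFV2 had normalized counts of 3678 ± 298 with DMSO and 3273 ± 125 with BRL-50481 (SD over 3 libraries each). The call of NDUFV2 was made without DMSO replicate 1 but not without any of the other libraries (limma adjusted p = 0.0584 to 0.15), and that of NDUFS3 was lost without DMSO replicate 2, BRL-50481 replicate 1 or BRL-50481 replicate 2 (limma adjusted p = 0.062 to 0.137). NDUFV1, which binds NADH and FMN, had a log2 fold change of 0.09 ± 0.06, and NDUFS1, the largest iron-sulfur subunit, one of 0.07 ± 0.05. NDUFS7, which contributes to the ubiquinone site, was at -0.02 ± 0.10. These 3 genes were not called. NDUFS7 was called lower without DMSO replicate 1, at a log2 fold change of -0.16 (limma adjusted p = 0.0289). After correction for transcript length and GC content, NDUFS1 turned to -0.16 and was called lower, and NDUFV1 was called higher at 0.16.

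Accessory subunits of complex I also held the genes that went the other way. NDUFC1, a small membrane-arm subunit, had 465, 614 and 545 normalized counts in the controls and 822, 679 and 703 in the treated libraries, and its log2 fold change was 0.44 ± 0.10 (SE), limma adjusted p = 0.00263. NDUFS4, a matrix-arm subunit that is often mutated in Leigh syndrome, had control values of 1489, 1738 and 1770.2 and treated values of 2056, 1889.6 and 2155, with a log2 fold change of 0.29 ± 0.07 (SE), limma adjusted p = 0.00456. All treated libraries of both genes were above all controls, and both calls were made whichever library was left out. The exons of NDUFC1 overlap those of MGARP on the same strand, so its reads are less certain. NDUFB7 (0.36 ± 0.12) and NDUFB6 (0.21 ± 0.08) were called higher, but their calls depended on single libraries. NDUFB7 had normalized counts of 592, 886 and 826 with DMSO and 887, 988 and 1055 with BRL-50481, so DMSO replicate 1 was well below the other controls, and its call was lost without BRL-50481 replicate 2 (limma adjusted p = 0.0738) or BRL-50481 replicate 3 (limma adjusted p = 0.0905). NDUFB6 had 1056, 1322 and 1227 normalized counts in the controls and 1362, 1354 and 1436 in the treated libraries, and only the fit without DMSO replicate 2 called it, the other 5 giving limma adjusted p values of 0.0569 to 0.126 (DMSO replicate 1, 0.0693).

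Complex II, the only complex of the chain with no subunit from mitochondrial DNA, split between its membrane anchors. SDHD, an anchor subunit, had control values of 4162, 4339.5 and 4125 and treated values of 3447, 3217 and 3173, and fell with a log2 fold change of -0.36 ± 0.05 (SE), limma adjusted p = 5.51e-05. SDHC, the other anchor, had normalized counts of 1436, 1480.1 and 1391 with DMSO and 1643, 1582 and 1684 with BRL-50481, and rose with a log2 fold change of 0.19 ± 0.06 (SE), limma adjusted p = 0.0124. In both genes the groups did not overlap, in opposite directions. SDHB, the iron-sulfur subunit, had 2853, 3300.2 and 3189 normalized counts in the controls and 2643, 2674 and 2788 in the treated libraries and a log2 fold change of -0.20 ± 0.06 (SE), limma adjusted p = 0.0113. SDHA, the flavoprotein that oxidizes succinate, had control values of 4757, 5014 and 4794 and treated values of 4299.6, 4478 and 4454 and a log2 fold change of -0.14 ± 0.05 (SE), limma adjusted p = 0.0235. The call of SDHD held whichever library was left out. SDHA was called only without DMSO replicate 1, with limma adjusted p values of 0.0513 to 0.0962 in the other 5 fits. SDHB lost its call without DMSO replicate 3 (limma adjusted p = 0.0519) or BRL-50481 replicate 1 (limma adjusted p = 0.0539), and SDHC without DMSO replicate 3 (limma adjusted p = 0.061) or BRL-50481 replicate 3 (limma adjusted p = 0.0697).

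In complex III, 7 of 10 genes were called lower (70.0%) and none higher, against 29.8% and 28.9% of all genes tested. All 10 log2 fold changes were below 0, from -0.71 to -0.11, and their median of -0.32 was the most negative of the 5 complexes. UQCRH, the hinge protein at the docking site of cytochrome c, had normalized counts of 4869.8, 5470.0 and 5269.7 with DMSO and 3156, 3093 and 3266 with BRL-50481, and its log2 fold change was -0.71 ± 0.05 (SE), limma adjusted p = 2.27e-07. The treated libraries lay within a narrow band well below the controls. A near-identical gene, UQCRHL, was listed at 90.3, 101 and 128 in the DMSO libraries and 72.5, 104 and 90.1 in the treated ones, which overlap, and reads could be split between the pair. UQCR10, a small subunit next to cytochrome c1, was at 1535 ± 168 with DMSO and 1132 ± 26.7 with BRL-50481 (SD over 3 libraries each), a log2 fold change of -0.43 ± 0.08. UQCR11, another small subunit, was at 3205 ± 505 with DMSO and 2434 ± 177 with BRL-50481 (SD over 3 libraries each), a log2 fold change of -0.39 ± 0.10. UQCRB, which takes part in ubiquinone binding, had normalized counts of 6202 ± 490.4 with DMSO and 5129 ± 248 with BRL-50481 (SD over 3 libraries each), a log2 fold change of -0.27 ± 0.06. Of the catalytic subunits encoded in the nucleus, CYC1 (cytochrome c1) had 4508, 5415 and 4847 normalized counts in the controls and 3621, 3865 and 3832 in the treated libraries and a log2 fold change of -0.38 ± 0.06 (SE), limma adjusted p = 2.11e-04. UQCRFS1, the Rieske iron-sulfur protein, had control values of 1799, 2226 and 2119.5 and treated values of 1878, 1827 and 1965, which overlap, and a log2 fold change of -0.11 ± 0.07 (SE), limma adjusted p = 0.219. Without DMSO replicate 1, UQCRFS1 was called lower at -0.20 (limma adjusted p = 0.000659).

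In complex IV, 9 of 15 genes were called lower (60.0%) and none higher, against 29.8% and 28.9% of all genes tested. The median log2 fold change was -0.22. All listed members are supernumerary subunits, since the catalytic core of this complex comes from mitochondrial DNA. COX7B, a small transmembrane subunit, had normalized counts of 3697, 4152 and 4150.2 with DMSO and 2389.9, 2109 and 2460.0 with BRL-50481, with a log2 fold change of -0.79 ± 0.07 (SE), limma adjusted p = 6.53e-07. COX6B1, which sits on the intermembrane space side, had 2766, 3359 and 3061 normalized counts in the controls and 1795, 1909.8 and 1974 in the treated libraries, with a log2 fold change of -0.69 ± 0.07 (SE), limma adjusted p = 2.70e-06. The groups of both genes were well separated. COX4I1, a subunit that binds ATP, had normalized counts of 5627 ± 497 with DMSO and 4823 ± 179 with BRL-50481 (SD over 3 libraries each), a log2 fold change of -0.22 ± 0.06. NDUFA4L2, a paralog of NDUFA4 known to be induced by hypoxia, had the most negative estimate of the complex but few reads, with control values of 35.7, 29.4 and 31.7 and treated values of 14.1, 23.2 and 14.5. Its log2 fold change was -0.89 ± 0.28 (SE), limma adjusted p = 0.0140, and the call was lost without BRL-50481 replicate 1 (limma adjusted p = 0.0522). NDUFA4 itself was at 2442 ± 209.5 with DMSO and 2106 ± 123 with BRL-50481 (SD over 3 libraries each), a log2 fold change of -0.21 ± 0.07, and was not called without DMSO replicate 2 (limma adjusted p = 0.0681) or BRL-50481 replicate 2 (limma adjusted p = 0.102).

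Several complex IV subunits have paralogs. COX7A2 had normalized counts of 4013, 4638 and 4319 with DMSO and 2826, 2873 and 3054 with BRL-50481, a log2 fold change of -0.57 ± 0.06, while COX7A2L, which helps join complexes III and IV into supercomplexes, had 3558, 3531 and 3631 normalized counts in the controls and 3239, 3246 and 3359.5 in the treated libraries, a log2 fold change of -0.12 ± 0.05. COX7A2L was called lower only without DMSO replicate 1 or 2, with limma adjusted p values of 0.0756 to 0.141 in the other 4 fits. The log2 ratio of COX7A2 to COX7A2L was 0.27 ± 0.11 in the DMSO libraries and -0.17 ± 0.03 in the treated ones (SD, n = 3 each), without overlap (two-sided exact permutation p = 0.1, the smallest that 3 against 3 libraries allow, and 0.16 after adjustment over 8 pairs). COX6B2, the testis-type paralog of COX6B1, had control values of 13.9, 31.3 and 21.5 and treated values of 15.1, 11.1 and 20.4, and COX7B2, the paralog of COX7B, had normalized counts of 1.98, 4.90 and 8.17 with DMSO and 11.1, 4.03 and 7.75 with BRL-50481, so both were near the lower end of detection and not called. COX8A had 2823, 3997 and 3792 normalized counts in the controls and 3698, 3950.5 and 4073 in the treated libraries, with a log2 fold change of 0.16 ± 0.10 (SE), limma adjusted p = 0.194, and was called higher without DMSO replicate 2 (limma adjusted p = 0.0284) or after correction for length and GC content.

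In complex V, 7 of 17 genes were called lower (41.2%) and 1 higher (5.88%), against 29.8% and 28.9% of all genes tested. The log2 fold changes had a median of -0.14. Among the 5 genes of the F1 head and central stalk, where ATP is made, 1 was called lower and 1 higher. ATP5B, the catalytic beta subunit, had control values of 19312, 20869.9 and 20142 and treated values of 17646, 18129.7 and 18855, a log2 fold change of -0.14 ± 0.05 (SE), limma adjusted p = 0.0184. Its call was made without DMSO replicate 1 or BRL-50481 replicate 3 but not in the other 4 fits (limma adjusted p = 0.0588 to 0.0903). ATP5A1, the alpha subunit, had normalized counts of 12483, 13243 and 12842 with DMSO and 12972, 12900.0 and 12849 with BRL-50481, and the groups overlapped, with a log2 fold change of 0.01 ± 0.04 (SE), limma adjusted p = 0.915. After correction for length and GC content, ATP5A1 turned to -0.13 and was called lower. ATP5C1, the gamma subunit of the rotating stalk, had 5125, 5645 and 5597 normalized counts in the controls and 6279, 5818 and 6183 in the treated libraries and rose, with a log2 fold change of 0.16 ± 0.05 (SE), limma adjusted p = 0.0201. That call was lost without BRL-50481 replicate 1 (limma adjusted p = 0.093) or replicate 3 (limma adjusted p = 0.0847). ATP5E, the epsilon subunit, was listed at 45.5 ± 8.19 and 51.9 ± 10.5 (SD, n = 3 each), and its processed copy ATP5EP2 was also listed, so its reads are uncertain. In the membrane part and the peripheral stalk, ATP5J2 (subunit f) had control values of 1470.5, 1662 and 1478 and treated values of 1065, 1096 and 1039, a log2 fold change of -0.52 ± 0.07 (SE), limma adjusted p = 1.64e-05, with an exon overlap with PTCD1. ATP5F1, subunit b of the stalk that holds the head still, had normalized counts of 5421, 5921 and 5692 with DMSO and 4454, 4252 and 4141 with BRL-50481, a log2 fold change of -0.41 ± 0.05 (SE), limma adjusted p = 1.90e-05. Both fell in every comparison that left out 1 library. ATPIF1, which encodes the inhibitor of the synthase and is not a member by its symbol, had 2389, 2877 and 2915 normalized counts in the controls and 2155, 2110.2 and 2251 in the treated libraries, and fell with a log2 fold change of -0.32 ± 0.07 (SE), limma adjusted p = 0.00189.

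The genes ATP5G1, ATP5G2 and ATP5G3 encode precursors that differ in their targeting sequence and are cleaved to the same mature protein, subunit c, which forms the rotating ring of the synthase. ATP5G1 had control values of 1444, 1674 and 1411 and treated values of 765, 782 and 762, so each treated library was well below each control. The mean changed by -49.0%, and the log2 fold change, the most negative of complex V, was -0.97 ± 0.07 (SE), limma adjusted p = 1.97e-07. ATP5G3 had normalized counts of 4321, 4984 and 4713 with DMSO and 3613, 3593 and 3748 with BRL-50481 and also fell, with a log2 fold change of -0.35 ± 0.06 (SE), limma adjusted p = 1.48e-04. ATP5G2 had 2877, 3423 and 3266 normalized counts in the controls and 3226, 3549 and 3563 in the treated libraries, which overlap, and was not called, at a log2 fold change of 0.11 ± 0.07 (SE), limma adjusted p = 0.164. It was called higher without DMSO replicate 2 (limma adjusted p = 0.0445) and after correction for length and GC content. Within each library, the log2 ratio of ATP5G1 to ATP5G2 was -1.08 ± 0.12 with DMSO and -2.16 ± 0.08 with BRL-50481, a difference of -1.08 ± 0.08 (SE). The ratio of ATP5G1 to ATP5G3 differed by -0.61 ± 0.06 and that of ATP5G2 to ATP5G3 by 0.47 ± 0.05. None of the 3 ratios overlapped between the groups, and each gave the smallest two-sided exact permutation p that the design allows, 0.1 (0.16 adjusted over 8 pairs). These ratios compare each gene with itself across groups and do not give the share of subunit c from each gene. The bar plot of the genes for subunit c shows the libraries behind them.

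**Figure D4:**
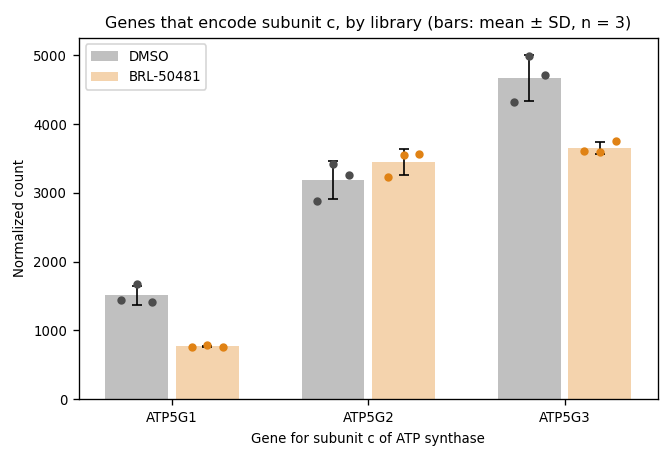
Normalized counts of ATP5G1, ATP5G2 and ATP5G3 (x axis) in the DMSO libraries (grey) and the BRL-50481 libraries (orange), with bars for the mean, error bars for the SD (n = 3) and a point for each library. ATP5G1 lies at 1411 to 1674 with DMSO and 762 to 782 with BRL-50481, while the groups overlap for ATP5G2.

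Promoter windows of 250 bases upstream of the RefSeq gene start (GRCh38.p14) were available for 67 of the 83 members and were searched on both strands for short forms of 4 binding motifs: GCGCANGCG for NRF1, CCGGAAG for GABPA and other ETS factors, AAGATGGCG for YY1, and TGACGTCA, the cyclic AMP response element bound by CREB, which was included because PDE7A degrades cyclic AMP. The NRF1 motif was present in 19 of 67 members (28.4%) and in 7.02% of 27305 promoters, and the GABPA motif in 16 (23.9%) and in 8.82% of promoters. The cyclic AMP response element was present in 4 (5.97%) against 1.77%, and the YY1 motif in 1 (1.49%) against 0.641%. The NRF1 motif was found in 8 of 39 members called lower and 10 of 23 not called, and the GABPA motif in 11 of 39 and 4 of 23. The 27305 promoters were all those with a full window, not only genes tested here, and were not matched for GC content. A match is a description of the sequence and not evidence of binding.

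The windows of ATP5G1 and ATP5G2 are shown because the genes encode the same mature protein and only ATP5G1 of the pair was called. No window was available for ATP5G3, which encodes that protein too and was also called lower. A link between these motifs and the changes was not tested. Capitals mark the matches, the cyclic AMP response element in ATP5G1 and the NRF1 motif, on the opposite strand, in ATP5G2. ATP5G1 lies at chr17:48892537-48892786, plus strand, and ATP5G2 at chr12:53676084-53676333, minus strand.
ATP5G1: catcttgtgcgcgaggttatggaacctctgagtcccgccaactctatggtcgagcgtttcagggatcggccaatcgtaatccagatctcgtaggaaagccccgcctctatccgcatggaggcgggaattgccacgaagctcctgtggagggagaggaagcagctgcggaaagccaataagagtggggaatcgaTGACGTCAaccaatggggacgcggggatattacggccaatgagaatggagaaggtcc
ATP5G2: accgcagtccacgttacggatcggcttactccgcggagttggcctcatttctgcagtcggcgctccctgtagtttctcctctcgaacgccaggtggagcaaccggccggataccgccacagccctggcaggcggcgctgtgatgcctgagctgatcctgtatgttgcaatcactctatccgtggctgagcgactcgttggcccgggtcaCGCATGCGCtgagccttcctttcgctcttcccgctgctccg
The 3 other members with a cyclic AMP response element were ATP5I, NDUFB2 and NDUFA10. Their windows are given to show how its distance from the gene start varies, from -48 in NDUFA10 and -53 in NDUFB2 to -158 in ATP5I, compared with -57 in ATP5G1, where -1 is the base before the gene start. ATP5I, subunit e of the synthase, also has 3 NRF1 matches in capitals. They lie at chr4:674277-674526, minus strand, at chr7:140696458-140696707, plus strand, and at chr2:240025343-240025592, minus strand.
ATP5I: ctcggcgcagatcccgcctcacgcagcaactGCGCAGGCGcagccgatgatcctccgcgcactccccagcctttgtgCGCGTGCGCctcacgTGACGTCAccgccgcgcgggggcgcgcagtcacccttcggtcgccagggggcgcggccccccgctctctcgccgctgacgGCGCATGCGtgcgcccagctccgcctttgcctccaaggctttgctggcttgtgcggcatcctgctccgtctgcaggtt
NDUFB2: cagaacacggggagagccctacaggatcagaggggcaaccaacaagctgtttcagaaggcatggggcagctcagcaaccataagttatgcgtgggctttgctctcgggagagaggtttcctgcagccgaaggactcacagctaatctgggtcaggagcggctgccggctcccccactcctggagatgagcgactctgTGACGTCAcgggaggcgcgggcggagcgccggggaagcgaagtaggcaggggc
NDUFA10: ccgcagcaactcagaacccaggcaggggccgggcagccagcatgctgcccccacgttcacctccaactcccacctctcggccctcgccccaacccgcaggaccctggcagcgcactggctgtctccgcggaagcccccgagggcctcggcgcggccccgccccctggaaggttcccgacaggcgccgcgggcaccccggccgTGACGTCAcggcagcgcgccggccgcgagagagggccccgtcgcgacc
Of these 4 members, ATP5G1 and NDUFB2 (-0.36 ± 0.08) were called lower, while NDUFA10 (-0.07 ± 0.06) and ATP5I (0.04 ± 0.11) were not called. SDHD and UQCR11, both called lower, are shown as windows with NRF1 and GABPA motifs together. COX6A1, called lower, and ATP5J, not called (limma adjusted p = 0.0665), also had both motifs and are not shown. In SDHD the palindromic NRF1 motif gives 2 overlapping matches and is followed by 1 GABPA motif, and in UQCR11 there are 2 GABPA motifs and 2 NRF1 motifs, all in capitals. SDHD lies at chr11:112086623-112086872, plus strand, and UQCR11 at chr19:1605463-1605712, minus strand.
SDHD: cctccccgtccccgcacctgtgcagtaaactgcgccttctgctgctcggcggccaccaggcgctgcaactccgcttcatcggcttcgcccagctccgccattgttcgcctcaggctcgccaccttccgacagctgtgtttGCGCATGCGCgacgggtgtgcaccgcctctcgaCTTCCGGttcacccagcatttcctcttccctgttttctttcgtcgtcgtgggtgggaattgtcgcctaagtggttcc
UQCR11: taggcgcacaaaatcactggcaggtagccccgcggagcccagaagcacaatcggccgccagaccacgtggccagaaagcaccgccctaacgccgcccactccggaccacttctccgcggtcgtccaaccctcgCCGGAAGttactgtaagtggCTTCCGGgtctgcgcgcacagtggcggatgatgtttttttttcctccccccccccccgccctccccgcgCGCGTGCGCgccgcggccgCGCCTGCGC

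Genes that build the complexes were called in both directions. Of 52 assembly factors on the lists for the 5 complexes, 26 were called lower and 8 higher (50.0% and 15.4%), where the shares of all genes tested were 29.8% and 28.9%, and the log2 fold changes had a median of -0.22. For complex I, 9 of 16 factors were called lower and 3 higher, led by NDUFAF4 (-0.97 ± 0.07) and NDUFAF5 (-0.81 ± 0.09), which modifies NDUFS7. NDUFAF4 had control values of 1188, 1241 and 1206 and treated values of 661, 598 and 590.3, with no overlap between the groups. For complex II, 3 of 4 factors were called lower and 0 higher, with SDHAF2, which attaches the flavin to SDHA, at -0.72 ± 0.07 and SDHAF1, which serves the iron-sulfur clusters of SDHB, at -0.47 ± 0.11. For complex III, 2 of 6 factors were called lower and 1 higher, and here BCS1L, which inserts the Rieske protein, fell (-0.39 ± 0.08) and TTC19 rose (0.40 ± 0.06). For complex IV, 11 of 23 factors were called lower and 3 higher, with COX14 at -0.88 ± 0.08 and COX20, a chaperone of the mitochondrially encoded subunit 2, at 0.79 ± 0.07. For complex V, 1 of 3 factors were called lower and 1 higher, with TMEM70 at -0.90 ± 0.09 and ATPAF2, a chaperone of the alpha subunit, at 0.40 ± 0.10. The lower shares of the lists for complexes III and V are near that of all genes. Each of these named factors was called in every fit that left out 1 library.

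Genes of the mobile carriers and their synthesis were called in both directions. CYCS, the gene for somatic cytochrome c, which carries electrons from complex III to complex IV, had normalized counts of 10583, 11344 and 11468 with DMSO and 5408, 4928 and 5169 with BRL-50481. This fall, with a log2 fold change of -1.11 ± 0.05 (SE), limma adjusted p = 3.85e-09, was past 2-fold, and its estimate was larger than that of any of the 83 members. HCCS, which attaches haem to cytochrome c, was also called lower (-0.43 ± 0.06). Genes for the synthesis of coenzyme Q (ubiquinone) were mostly called higher, with 2 of 11 called lower and 7 higher (18.2% and 63.6%, against 29.8% and 28.9% of all genes tested) and a median of 0.30. COQ2, the prenyltransferase that joins the ring to its tail, had 392, 427 and 427 normalized counts in the controls and 837, 731 and 755 in the treated libraries, a log2 fold change of 0.90 ± 0.08 (SE), limma adjusted p = 9.08e-07. The exceptions were PDSS1 (-0.33 ± 0.11), a subunit of the enzyme that makes the tail, and ADCK3 (-0.47 ± 0.06), now named COQ8A, which were called lower. Of the calls for coenzyme Q genes, that of COQ4 (higher) was made in only 3 of the 6 fits that left out 1 library. Those of COQ3 (higher) and PDSS1 were made in 5 of the 6. The genes of this paragraph were named after their values had been seen, apart from CYCS and COQ2. Over the 13 genes of the list, 4 were called lower and 7 higher, and the 30.8% called lower is near the share of all genes.

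Regulators of mitochondrial gene expression and biogenesis were lower in most cases, with 13 of 18 called lower and 1 higher (72.2% and 5.56%, against 29.8% and 28.9% of all genes tested) and a median of -0.42. In contrast to the subunit genes, this median did not separate DMSO replicate 1 from the other controls. The 3 coactivators of the PGC-1 family fell. PPARGC1B had control values of 761, 601 and 594 and treated values of 304, 343 and 317, a log2 fold change of -1.01 ± 0.10 (SE), limma adjusted p = 2.70e-06. PPARGC1A had normalized counts of 501, 399.7 and 404 with DMSO and 289.9, 298 and 288 with BRL-50481, a log2 fold change of -0.57 ± 0.10 (SE), limma adjusted p = 3.25e-04. PPRC1 had 3326, 3053 and 3105 normalized counts in the controls and 2214, 2362 and 2258 in the treated libraries, a log2 fold change of -0.47 ± 0.05 (SE), limma adjusted p = 8.50e-06. All treated libraries lay below all controls in each of the 3 genes. NRF1 was at 909 ± 54.1 with DMSO and 746 ± 31.9 with BRL-50481 (SD over 3 libraries each), a log2 fold change of -0.28 ± 0.07 (SE), limma adjusted p = 0.00391. ESRRA, an orphan nuclear receptor that works with the PGC-1 coactivators, had a log2 fold change of -0.60 ± 0.07, YY1 one of -0.33 ± 0.05 and GABPB1, the beta partner of GABPA, one of -0.37 ± 0.07, and all were called lower. GABPA itself had control values of 901, 784 and 789 and treated values of 1080.2, 1015 and 1068, and rose with a log2 fold change of 0.36 ± 0.07 (SE), limma adjusted p = 8.75e-04. MTERF1, a mitochondrial termination factor, was the second largest change of the list, at -0.63 ± 0.10. TFAM, which packages mitochondrial DNA, and POLRMT, the mitochondrial RNA polymerase, were lower as well, at -0.59 ± 0.05 and -0.62 ± 0.08, and both were named after their values had been seen. All of the regulators named here were called in every fit that left out 1 library. The plot of shares called sets the lists side by side.

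**Figure D5:**
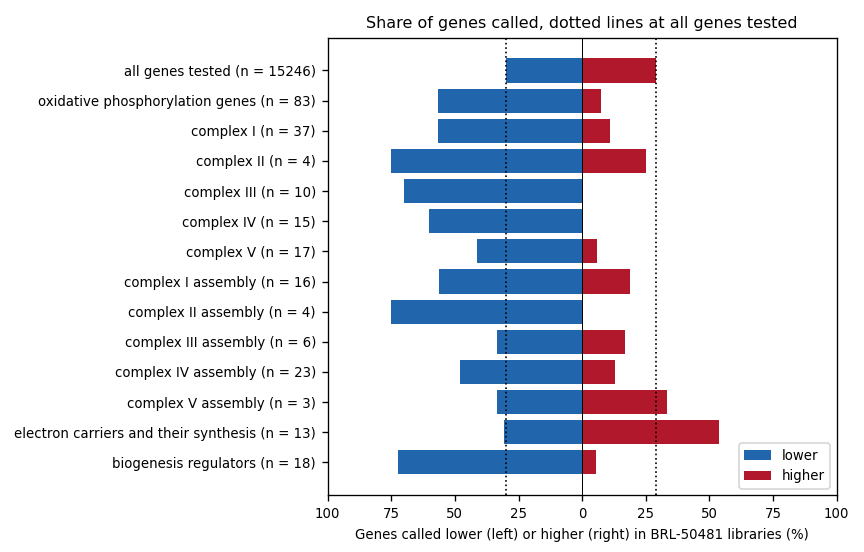
Share of genes called lower (left of 0, blue) and higher (right of 0, red) in the BRL-50481 libraries, in percent, for each complex, each list of assembly factors, the electron carriers and the biogenesis regulators, with the number of genes in parentheses. Dotted lines mark the shares over all 15246 genes tested, 29.8% lower and 28.9% higher.

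The members are spread over the genome. On hg38, the genes with the most negative log2 fold change of complexes I, II, III and V are NDUFA6 (chr22:42085526-42090884), SDHD (chr11:112086824-112120016), UQCRH (chr1:46303698-46316776) and ATP5G1 (chr17:48892765-48895871), and COX7B, the second most negative of complex IV, is at chrX:77899440-77907376. The members shared features that the choice of symbols did not use. Their transcripts were short, with a median length of 857 bases in GENCODE release 44 compared with 3167 bases for all genes with a length. Across the 83 genes, the log2 fold change had a Spearman correlation of 0.19 with transcript length and of -0.09 with the mean normalized count, as descriptions over genes that share the same libraries. After correction of each library for length and GC content, 52 members were called lower and 12 higher, where 37.2% of all genes were called lower and 28.4% higher, and the median was -0.16, with all genes at -0.04. DMSO replicate 1 was then the lowest control in 61 of the 83 members, and its median lay at -0.07, with the treated libraries at -0.20, -0.19 and -0.13. The part of length and GC content in the differences was not tested beyond this correction. The 29 members that share sequence or same-strand exons with another gene were then left out. Of the genes named above, these include NDUFB2, NDUFB8, NDUFC1, NDUFS1, NDUFS3, NDUFS8, NDUFV1, NDUFV2, SDHA, SDHD, UQCRH, UQCRHL and UQCR11. COX6A1, COX6B2, COX8A, ATP5E, ATP5G2, ATP5G3 and ATP5J2 are also among the 29, and the reads of all these genes are less certain. Of the 54 other members, 31 were called lower and 5 higher without the correction, against 29.8% and 28.9% of all genes tested.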

How the data were processed

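RNA-seq covered 3 DMSO and 3 BRL-50481 libraries of MDA-MB-231 cells. Per the labels, mRNA was captured with oligo-dT beads in strand-specific libraries, although the series text names rRNA depletion. Per the study's Methods, reads were aligned with STAR 2.7.1a to hg38, counted on the reverse strand with htseq-count and scaled with DESeq2 1.28. The deposited signal is therefore a read count per gene divided by a size factor, in 1 table for all 6 libraries. The deposited comparison columns (mean, log2 fold change, its error, statistic and p-values) were not used. Every one of the 93906 values came out as a whole number of reads to within 1e-06, so reads were recovered for count tests.

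Following the Methods, genes were kept if 3 or more libraries reached a normalized count of 4. The groups were compared with limma 3.58.1 (trend) on log2(normalized count + 1) in R 4.3.3, two-sided, with Benjamini-Hochberg adjustment over 15246 genes. A fold change on this scale understates the change of low genes. The libraries held 30750573 to 33446984 reads, and the SE came from the spread between libraries. Over 12251 genes, that spread (SD of log2 deviations from the group mean) was 0.096 to 0.141 in the DMSO libraries. In the BRL-50481 libraries it was 0.079 to 0.083. Alternatives were pseudocounts of 0.5 and 4, other filters and normalizations, no trend, edgeR 4.0.16 and DESeq2 1.42.0 on the recovered reads, a replicate block, a loess correction for length and GC content, and leaving out each library. The scripts were tested on simulated data. The members and lists were chosen with earlier results of these data known. Named genes were, in each complex, the 3 largest changes among called genes, the highest mean count and every gene called against the majority, together with all of complex II, catalytic subunits, paralogs, the 2 largest changes of each other list and the biogenesis factors. For 19 members the table uses older symbols, matched through RefSeq synonyms. One member is included in the counts but its own values are not reported here. Transcript lengths come from GENCODE release 44 on the same build.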

Additional observations from a re-analysis of the deposited data

How the results depend on the processing

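The members called lower numbered 34 to 56 and their median log2 fold change was -0.29 to -0.16 over the alternatives of the fit. edgeR called 47 lower and 6 higher, DESeq2 46 and 6, and both pseudocounts, no filter and a mean of at least 20 gave 47 and 6. Over all genes tested, edgeR called 4574 lower and 4358 higher, and DESeq2 4356 and 4097. The pseudocounts of 0.5 and 4 called 4535 and 4552 lower and 4382 and 4425 higher. No filter called 4557 lower and 4419 higher of 15651 genes, and a mean of at least 20 called 4444 and 4134 of 13268. Quantile normalization gave 38 and 9, median centring 41 and 7, and no trend 34 and 3. Over all 15246 genes, these settings in turn called 4448, 4211 and 4139 lower and 4330, 4743 and 3931 higher. With correction for length and GC content 52 were lower and 12 higher, and with the replicate block added 54 and 13, and the correction moved the lower share of all calls from 50.8% to 56.7%. Over 14734 genes with a length, it called 5487 lower and 4189 higher, and 5454 and 4141 with the block. Without members that share sequence with another gene, an alternative chosen after seeing the data, 31 of 54 were called lower, against 29.8% of all genes tested. Quantile normalization put 1 member, NDUFA4L2, past 2-fold, and leaving out libraries in turn put 0 to 1 there.

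By complex, no trend left 2 genes of complex I called higher, 1 of complex II lower and 0 of complex V higher. Quantile normalization left 1 of complex II lower, with a median of -0.12, and 2 of complex V higher, 2 complex III and 2 complex V assembly factors higher. The correction for length and GC content called 1 gene of complex IV, 4 of complex V (5 with the block), 1 complex II and 2 complex III assembly factors and 2 biogenesis regulators higher, and turned ATP5A1 to -0.13 and NDUFS1 to -0.16, with and without the block. Median centring called 1 complex II assembly factor higher. The calls over all genes under these settings are given in the paragraph above. The cause of these differences was not tested. Leaving out each library in turn gave 37 to 56 members lower and 2 to 10 higher. Over all 15246 genes, these fits called 4027 to 4933 lower and 3751 to 4876 higher. By complex, 2 to 5 genes of complex I were called higher, and 1 to 3 of complex II lower and 0 to 1 higher. In complex IV 0 to 1 and in complex V 0 to 3 genes were called higher. Of the assembly factors, 0 to 1 of complex II were called higher, 1 to 3 of complex III lower and 1 to 2 of complex V higher.

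Numbered replicates were not treated as paired in the main fit. Correlations of deviations from the group means were 0.12, 0.10 and 0.05 between libraries of the same number. Between libraries of different numbers they were -0.16 to 0.06. These few values do not settle whether the cultures were paired. The replicate block gave 49 members lower and 6 higher, with 4589 and 4440 over all 15246 genes, and changed no call of a named gene. With no trend, 13 of the 66 named genes lost their call. NDUFS8 (limma adjusted p = 0.0544), UQCR11 (0.0568) and COX4I1 (0.063) were among them. With quantile normalization 7 lost their call and 1 gained one, and with median centring 5 lost theirs. Members under about 100 normalized counts (5 genes) are limited by depth.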

Other observations

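Besides the inhibitor gene, 2 genes for ATP synthase subunits carry symbols that the choice of members did not take in, and they were picked after their values had been seen. USMG5, a small membrane subunit now named ATP5MK that helps pair synthase monomers, had 3602, 3949.7 and 4103 normalized counts in the controls and 2586, 2449.7 and 2563 in the treated libraries. Each treated library lay below each control, and the log2 fold change was -0.62 ± 0.06 (SE), limma adjusted p = 1.37e-06. C14orf2, now named ATP5MJ, had control values of 1286, 1471 and 1493 and treated values of 1163, 973 and 1152, with a log2 fold change of -0.37 ± 0.08 (SE), limma adjusted p = 0.00169. With both added, 49 of 85 genes were called lower and 6 higher, against 29.8% and 28.9% of all genes tested. The rise from 47 was fixed by adding genes already seen to be lower. Of the paralogs, the log2 ratio of COX7B to COX7B2 differed by -1.36 ± 0.52 (SE), with COX7B2 near the lower end of detection (two-sided exact permutation p = 0.1, adjusted 0.16). The ratios of NDUFA4 to NDUFA4L2 (0.68 ± 0.31) and of UQCRH to UQCRHL (-0.46 ± 0.20) each gave an exact permutation p of 0.2, and that of COX6B1 to COX6B2 (-0.23 ± 0.33) one of 0.6.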
